A study of Homo sapiens with 48 samples.

Results

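The mRNAs of 10 genes of the NF-kappaB system were followed in AMO1, a cell line grown from a human plasmacytoma and used as a model of multiple myeloma, during silencing of IRE1 or of its substrate XBP1. The genes were found by symbol in the deposited count table, which held 58302 genes, and all 10 passed the filter on low counts. They were 5 DNA-binding subunits (NFKB1, NFKB2, REL, RELA and RELB), 2 inhibitors (NFKBIA and NFKBIE) and 3 feedback or target genes (TNFAIP3, BIRC3 and TRAF1). All clones carried short hairpin RNAs (shRNAs) that doxycycline (Dox) switches on. In the shIRE1 clones, clone 1 and clone 3, the labels give the hairpins sh7, 8 and 9 against IRE1, whose gene is ERN1. In the shXBP1 clones, clone 1 and clone 18, they give the hairpins sh4, 6 and 7 against XBP1. Each clone was sampled without treatment (0 h) and after 24, 48 and 72 h of 0.2 µg/ml Dox in 3 biological replicates, which made 16 groups and 48 libraries. There were 2 clones for each target, so the spread between libraries does not measure the spread between clones. Each change is against the untreated cells of the same clone, which were sampled at 0 h only. Dox itself and time in culture are therefore part of it and cannot be told apart from the silencing.

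NF-kappaB factors are dimers of the subunits that NFKB1, NFKB2, REL, RELA and RELB encode. In resting cells the inhibitors that NFKBIA and NFKBIE encode (IκBα and IκBε) hold dimers in the cytoplasm. In the canonical pathway the IKK complex marks these inhibitors for degradation, and in the alternative pathway the kinase NIK leads to processing of the NFKB2 precursor, which pairs with RELB. Several target genes feed back on the pathway, among them NFKBIA, the deubiquitinase gene TNFAIP3, the ubiquitin ligase gene BIRC3 and the adaptor gene TRAF1. Myeloma cells often carry lesions that keep the pathway active.

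NF-kappaB dimers bind short DNA elements called kappaB sites, and the sequences below are shown because such elements stand before the starts of several of these genes. RefSeq promoters (GRCh38.p14, 250 bases before to 50 bases after a gene start) were searched on both strands for the kappaB consensus, which is 10 bases long, and overlapping matches stand as 1 run of capitals. A match was found in 11.3% of all 35116 promoters in the table. It was found in the promoters of NFKBIA, TNFAIP3, BIRC3 and REL, in 1 of 2 promoters of NFKB1 and in 2 of 3 of NFKB2, and in none of the 2 of RELA or the 3 of TRAF1. RELB and NFKBIE were not searched. Windows of 30 bases are given 5′ to 3′ on the strand of the gene, with the matched bases in capitals. For NFKB2 only 1 of the windows with a match is shown, and others lie in the same promoter and in another.
NFKBIA, chr14:35404811-35404840, minus strand: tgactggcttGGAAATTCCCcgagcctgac
TNFAIP3, chr6:137867188-137867217, plus strand: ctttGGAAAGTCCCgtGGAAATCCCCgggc
BIRC3, chr11:102317275-102317304, plus strand: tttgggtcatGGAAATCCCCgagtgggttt
BIRC3, chr11:102317339-102317368, plus strand: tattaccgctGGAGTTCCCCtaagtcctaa
NFKB1, chr4:102501300-102501329, plus strand: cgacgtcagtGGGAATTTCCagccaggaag
REL, chr2:60881517-60881546, plus strand: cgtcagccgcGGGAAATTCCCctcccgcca
NFKB2, chr10:102394461-102394490, plus strand: gaaacgtcatGGGAATTCCCCcctccgggg
In NFKBIA the match began 81 bases before the start, in NFKB1 49, and in TNFAIP3 a pair of matches began 67 and 55 bases before it. A match is a description of these letters and does not show that a factor bound there.

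Total counts per library ran from 19177855 to 40767202. Levels are given as CPM (counts scaled to a common library size) with TMM factors, for single libraries in the order of replicates 1 to 3 or as mean ± SD (n = 3), and log2 changes as estimate ± SE. The library labelled shXBP1 clone 18, 72 h, replicate 3 went against its label: at 58 of 61 genes that part the shXBP1 clones it lay nearer clone 1, as against 0 to 3 of these genes nearer the other clone in every other shXBP1 library. Comparisons of the 10 genes at 72 h that include it are given with and without it, apart from GC-corrected values. Exceptions are REL between the shRNAs, and REL, RELB and BIRC3 between the shXBP1 clones. Without GC correction none of these passed the test, with or without that library. Only 7 genes parted the shIRE1 clones as far, and they moved with Dox in all 3 replicates alike. In each clone 3 library at 48 h 6 of 7 lay nearer clone 1, and in each clone 1 library at 72 h 4 of 7 lay nearer clone 3. They therefore give no check of those labels. Libraries also differed in how their values leaned on the GC content of transcripts, with slopes within groups from -0.17 to 0.19 log2 per 10 percentage points of GC. RELB (64.9% GC), NFKB2 (61.2%), NFKBIE (60.4%) and RELA (58.6%) are GC-rich, and BIRC3 (35.8%) and REL (38.4%) are AT-rich. A GC-corrected fit, chosen after the data were seen, sets each gene against genes of like GC content in the same library, and by its construction it also takes out a change that such genes share after Dox. Its values stand beside each called change that it ends, turns or moves by more than 1.5 times, and beside each uncalled one that it brings to a call.

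The targeted genes were lower after Dox in the clones that target them. ERN1 went from 153 ± 2.34 to 103 ± 1.42 CPM at 72 h in shIRE1 clone 1 and from 432 ± 17 to 125 ± 2.93 in clone 3. XBP1 went from 167 ± 7.69 to 34.1 ± 1.07 CPM in shXBP1 clone 1 and from 169 ± 8.17 to 37.6 ± 4.99 in clone 18, where the library at odds with its label was at 31.9 CPM and the others at 41.3 and 39.7. The clones were not alike before Dox, since untreated ERN1 was at 188 ± 6.00 CPM in shXBP1 clone 1 and 411 ± 2.17 in clone 18. At 72 h ERN1 was higher in that clone 1, at 315 ± 4.46 CPM. It was lower in clone 18, at 336 ± 26.3 with the library at odds with its label included. XBP1 also fell in the shIRE1 clones by 72 h, from 179 ± 2.56 to 138 ± 3.79 CPM in clone 1 and from 214 ± 23.4 to 121 ± 3.21 in clone 3. IRF4, the factor the study turns on, fell in shIRE1 clone 1 (log2 change at 72 h -1.11 ± 0.04, adjusted p = 4.31e-14) and clone 3 (-2.10 ± 0.06, adjusted p = 3.99e-13). Of the plasma cell markers, SDC1 was at 5126 CPM or above in every library, while the B-cell marker gene PAX5 did not exceed 0.0388 CPM. The monocyte gene CD68 was at 0 in all 48 libraries, but whether the counting could assign reads to it was not tested. The T-cell genes CD4 (106 to 501 CPM) and CD3E (4.57 to 17.5 CPM) were present in every library. Summed over 12 markers of other cell types, mostly CD4, levels ranged from 114 to 516 CPM over libraries and from 244 to 415 in shIRE1 clone 1. Their part in the results was not tested. In bulk RNA, fewer cells that express a gene and less RNA of it per cell cannot be told apart.

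Per length of the annotated canonical transcript, TNFAIP3 was the highest of the 10 genes, with a median over the 48 libraries of 100.2 CPM per kilobase (RPKM). NFKB2 (74.6) and BIRC3 (67.8) came next, followed by NFKB1 (29.1), NFKBIA (25.9), RELA (23.9), RELB (14.9), NFKBIE (6.31), TRAF1 (3.28) and REL (0.962). The order rests in part on the choice of transcript: with the union of all annotated exons NFKB1 ranked below RELB, at 7.52. Across the 16 groups the widest range was that of TRAF1, whose highest group mean was 3.05 times its lowest, and the narrowest that of NFKB1 (1.34 times). Ranked by group mean, most neighbouring groups overlapped: of 15 neighbouring pairs of groups, 5 did not overlap for TNFAIP3, BIRC3 and TRAF1, 3 for NFKBIA and none for NFKB1. This was counted for the 10 genes only, so it does not tell whether they differ in this from other genes. The plot of levels by clone and hour shows all libraries.

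**Figure D1:**
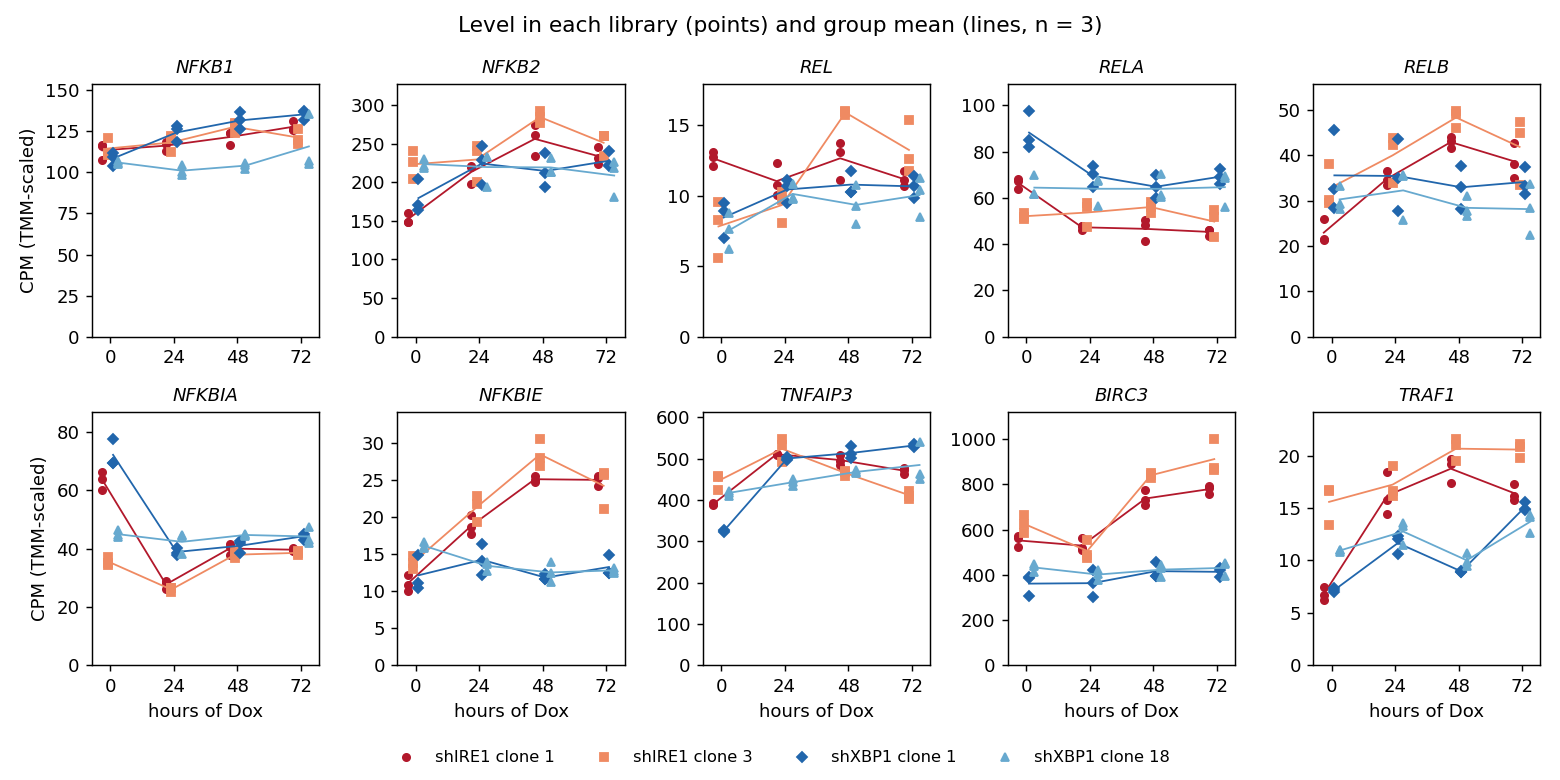
Level of each gene (y axis, CPM with TMM scaling, from 0) against hours of Dox (x axis) for 4 clones; points are single libraries and lines join means of 3 libraries. NFKBIA begins higher in clone 1 of either shRNA than in the other clone and the clones lie close together at 72 h, and NFKBIE rises in both shIRE1 clones.

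Most of the 10 mRNAs changed after IRE1 silencing in clone 1, fewer in clone 3 and shXBP1 clone 1, and fewest in shXBP1 clone 18. The share of all genes that changed was also highest in shIRE1 clone 1 and lowest in shXBP1 clone 18, so this order is not particular to the 10 genes. The largest changes in shIRE1 clone 1 were a fall of NFKBIA and rises of TRAF1 and NFKBIE. In each comparison a gene was called at an adjusted p under 0.05 (edgeR quasi-likelihood F test, Benjamini-Hochberg over all genes tested). In shIRE1 clone 1 at 24 h, 5 of the 10 genes were higher and 3 lower, where 32.4% of all genes were higher and 29.0% lower. At 48 h the counts were 6 and 2 (33.9% and 31.5% of all genes), and at 72 h they were 7 and 2 (32.5% and 31.1%). In shIRE1 clone 3 they were 2 higher and 2 lower at 24 h (22.8% and 23.3%), 7 and 0 at 48 h (31.6% and 31.6%) and 5 and 1 at 72 h (29.7% and 30.5%). In shXBP1 clone 1 they were 3 and 2 at 24 h (13.9% and 12.8%), 4 and 2 at 48 h (16.6% and 15.5%) and 4 and 2 at 72 h (16.8% and 16.8%). In shXBP1 clone 18 they were 0 and 0 at 24 h (0.291% and 1.30%), 0 and 1 at 48 h (2.28% and 3.50%) and 2 and 1 at 72 h (4.41% and 5.55%). Without the library at odds with its label, clone 18 had 0 higher and 1 lower of the 10 genes at 72 h (3.09% and 4.48% of all genes) and 1 higher and 1 lower at 48 h (5.78% and 7.16%). At 24 h the counts without it were 0 and 0 (1.46% and 3.33%), since that library enters the spread at every time. The median log2 change of the 10 genes at 72 h was 0.38 in shIRE1 clone 1, 0.23 in clone 3, 0.23 in shXBP1 clone 1 and 0.00 in clone 18, against 0.02, 0.02, -0.01 and -0.01 over all genes.

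**Figure D2:**
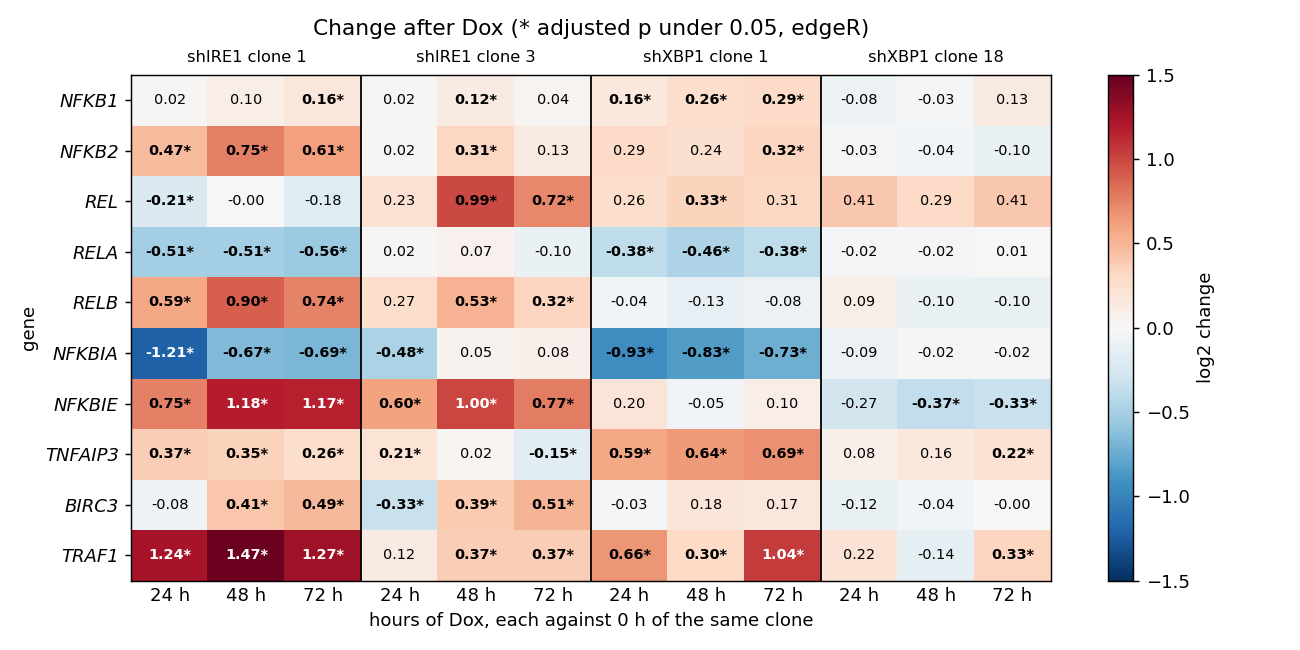
Log2 change of each gene (rows) after 24, 48 and 72 h of Dox against 0 h in each clone (columns), with red for higher and blue for lower; an asterisk marks an adjusted p under 0.05. NFKBIA falls to -1.21 in shIRE1 clone 1 at 24 h, TRAF1 reaches 1.47 there at 48 h, and shXBP1 clone 18 holds 4 called cells.

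NFKBIA, on chr14:35401079-35404749 (GRCh38, GENCODE 44, minus strand), encodes IκBα, which retains NF-kappaB dimers and is itself an NF-kappaB target. In shIRE1 clone 1 its libraries were at 60.0, 64 and 66.4 CPM before Dox and at 26.1, 28.3 and 28.7 at 24 h. No library overlapped between these groups, and the log2 change was -1.21 ± 0.05 (adjusted p = 6.79e-13). By 72 h the level had come back part of the way, to 39.6 ± 0.428 CPM (-0.69 ± 0.05, adjusted p = 1.62e-09). Clone 3 showed a fall at 24 h alone among its 3 times: its libraries were at 37.2, 35.2 and 34.5 CPM at 0 h and 25.1, 26.4 and 26.4 at 24 h (-0.48 ± 0.06, adjusted p = 8.13e-06). At 48 and 72 h its levels were 37.9 ± 1.02 and 38.5 ± 0.716 CPM, with log2 changes of 0.05 (adjusted p = 0.431) and 0.08 (adjusted p = 0.252). In shXBP1 clone 1 NFKBIA fell from 77.5, 69.5 and 69.4 to 38.4, 40.3 and 37.8 CPM at 24 h (-0.93 ± 0.07, adjusted p = 3.52e-06), and the change was -0.73 ± 0.07 (adjusted p = 1.51e-05) at 72 h. No change passed the test in shXBP1 clone 18, with values of -0.09, -0.02 and -0.02 at the 3 times, the last -0.07 without the library at odds with its label.

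NFKBIE (chr6:44258166-44265788, minus strand) encodes IκBε, another cytoplasmic inhibitor of NF-kappaB dimers. It rose in both shIRE1 clones at all 3 times. The shIRE1 clone 1 libraries were at 9.99, 12.2 and 10.8 CPM at 0 h, 17.6, 20.2 and 18.6 after 24 h, 25.6, 24.6 and 25 after 48 h and 25.3, 25.5 and 24.1 after 72 h. Every library after Dox lay above every library at 0 h, and the log2 changes were 0.75 ± 0.07 (adjusted p = 5.20e-08), 1.18 ± 0.07 (adjusted p = 5.01e-11) and 1.17 ± 0.07 (adjusted p = 7.00e-11). In clone 3 the libraries went from 13.8, 13 and 14.8 CPM at 0 h to 26.9, 27.9 and 30.5 at 48 h, again without overlap, and the changes were 0.60 ± 0.10 (adjusted p = 1.53e-04), 1.00 ± 0.10 (adjusted p = 3.53e-07) and 0.77 ± 0.10 (adjusted p = 6.72e-06) at the 3 times. With GC correction the rise in clone 3 at 24 h was smaller, at 0.32 (adjusted p = 5.96e-04), and those at 48 and 72 h were 0.67 and 0.57.
In shXBP1 clone 1, where libraries were at 14.8, 11.1 and 10.5 CPM at 0 h and 14.8, 12.4 and 12.5 at 72 h and overlapped, no change passed the test (0.20, -0.05 and 0.10). With GC correction NFKBIE rose there at each time, by 0.34 (adjusted p = 6.26e-04), 0.23 (adjusted p = 0.0151) and 0.36 (adjusted p = 5.55e-04). It fell in shXBP1 clone 18, from 16.1 ± 0.432 CPM to 12.5 ± 1.32 after 48 h (-0.37 ± 0.09, adjusted p = 0.0279) and 12.8 ± 0.357 after 72 h (-0.33 ± 0.09, adjusted p = 0.0340). Without the library at odds with its label the 72 h value was -0.35 (adjusted p = 0.0401), and with GC correction it was -0.21 (adjusted p = 0.119). The call at 48 h was lost when any 0 h library, 24 h replicate 3, or 48 h replicate 1 or 2 was left out, with changes from -0.45 to -0.31. That at 72 h was lost without any 0 h library, 24 h replicate 2 or 3, 48 h replicate 2, or 72 h replicate 1 or 2, with changes from -0.35 to -0.29.

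TNFAIP3 (chr6:137867214-137883314, plus strand) encodes a ubiquitin-editing enzyme that dampens signalling to NF-kappaB. Its replicates were tight, and its exons overlap those of the antisense gene WAKMAR2, whose share of the reads is uncertain. It was at 393, 389.6 and 388 CPM at 0 h and 511, 510.0 and 511 at 24 h in shIRE1 clone 1, a rise without overlap (0.37 ± 0.03, adjusted p = 1.65e-08) that was 0.26 ± 0.03 (adjusted p = 1.37e-06) at 72 h. In clone 3 it rose at 24 h, from 425, 456 and 458 to 492, 547 and 534 CPM (0.21 ± 0.05, adjusted p = 0.00334), and was lower than at 0 h by 72 h, at 421, 404 and 411 CPM (-0.15 ± 0.05, adjusted p = 0.0157). Leaving out the 72 h replicate 2 ended that last call.
Its largest rise was in shXBP1 clone 1, from 323, 327 and 325 CPM at 0 h to 504, 497 and 500.4 at 24 h and 529, 531 and 537 at 72 h. The changes there were 0.59 ± 0.04 (adjusted p = 1.61e-06), 0.64 ± 0.04 (adjusted p = 7.92e-07) and 0.69 ± 0.04 (adjusted p = 3.49e-07). In shXBP1 clone 18 the libraries were at 423, 418 and 411 CPM at 0 h and 463, 450.5 and 541 at 72 h, where the highest is the library at odds with its label. The change was 0.22 ± 0.06 (adjusted p = 0.0393) with it and 0.14 (adjusted p = 0.0616) without it, and the call was also lost without any 0 h library, 24 h replicate 2, or 48 h replicate 1 or 2. At 48 h, conversely, the value went from 0.16 (adjusted p = 0.154) to 0.16 (adjusted p = 0.0133) without that library.

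BIRC3 (chr11:102317484-102339403, plus strand) encodes an inhibitor of apoptosis that ubiquitinates members of the pathway and takes part in the turnover of NIK. It rose late in both shIRE1 clones. In clone 1 it was at 572, 561 and 522 CPM at 0 h, 561, 519 and 507 at 24 h and 757, 785 and 793 at 72 h, with changes of -0.08 ± 0.05 (adjusted p = 0.157) at 24 h, 0.41 ± 0.05 (adjusted p = 2.53e-07) at 48 h and 0.49 ± 0.05 (adjusted p = 2.80e-08) at 72 h. The 24 h change was called without 0 h replicate 3 or 24 h replicate 1. In clone 3 it first fell, from 587, 665 and 625 to 555, 488 and 474 CPM (-0.33 ± 0.07, adjusted p = 0.00129), and then rose to 869.9, 865 and 999 CPM at 72 h (0.51 ± 0.07, adjusted p = 1.58e-05). With GC correction the fall at 24 h no longer passed the test (-0.08, adjusted p = 0.168), and the rise at 48 h went from 0.39 to 0.69 (adjusted p = 7.56e-10). In the shXBP1 clones no change passed the test, with values from -0.03 to 0.18 in clone 1 and from -0.12 to 0.00 in clone 18, where the 72 h value was -0.03 without the library at odds with its label. An antisense gene, ENSG00000288528, overlaps its exons, and its share of the reads is uncertain.

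TRAF1 (chr9:120902393-120929173, minus strand) encodes an adaptor of TNF receptors whose gene is a classical NF-kappaB target. It had the largest rise of the 10 genes. Its shIRE1 clone 1 libraries went from 6.18, 6.72 and 7.43 CPM at 0 h to 14.4, 15.8 and 18.4 at 24 h, 19.7, 19.2 and 17.4 at 48 h and 17.3, 16.2 and 15.8 at 72 h. No library overlapped with 0 h, and the changes were 1.24 ± 0.10 (adjusted p = 2.15e-09), 1.47 ± 0.10 (adjusted p = 1.22e-10) and 1.27 ± 0.10 (adjusted p = 1.47e-09). Clone 3 began at a higher level, 13.4, 16.7 and 16.7 CPM, and reached 21, 21.6 and 19.5 after 48 h (0.37 ± 0.10, adjusted p = 0.00329) and 20.9, 21.2 and 19.8 after 72 h (0.37 ± 0.10, adjusted p = 0.00393). The course in shXBP1 clone 1 was not steady, since the level was 7.18 ± 0.178 CPM at 0 h, 11.7 ± 0.891 after 24 h, 8.95 ± 0.0423 after 48 h and 15.1 ± 0.399 after 72 h. The changes were 0.66 ± 0.08 (adjusted p = 1.25e-04), 0.30 ± 0.08 (adjusted p = 0.0147) and 1.04 ± 0.08 (adjusted p = 3.48e-06). The change at 72 h in shXBP1 clone 18 was 0.33 ± 0.10 (adjusted p = 0.0464), from 11, 10.8 and 11 to 14.3, 12.6 and 14.2 CPM, and 0.31 (adjusted p = 0.0794) without the library at odds with its label. The call was also lost without any 0 h library, 24 h replicate 3, 48 h replicate 1 or 2, or 72 h replicate 1.

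NFKB2 (chr10:102394110-102402524, plus strand) and RELB (chr19:45001461-45038192, plus strand) encode the partners of the alternative pathway. Both rose in shIRE1 clone 1. RELB was at 21.5, 21.3 and 26 CPM at 0 h, 44.1, 43.2 and 41.5 at 48 h and 42.8, 38.1 and 35.1 at 72 h there, without overlap, and its changes were 0.59 ± 0.08 (adjusted p = 3.10e-06), 0.90 ± 0.08 (adjusted p = 6.84e-09) and 0.74 ± 0.08 (adjusted p = 1.22e-07) at the 3 times. NFKB2 was at 148, 148 and 159.9 CPM at 0 h and 274, 261 and 233 at 48 h, with changes of 0.47 ± 0.06 (adjusted p = 1.08e-06), 0.75 ± 0.06 (adjusted p = 1.45e-09) and 0.61 ± 0.06 (adjusted p = 2.76e-08). With GC correction both still rose in this clone, NFKB2 by 0.31 (adjusted p = 1.33e-10) at 24 h, and RELB by 0.33 (adjusted p = 1.81e-05) at 24 h and 0.57 (adjusted p = 5.18e-10) at 48 h. In shIRE1 clone 3 the rises did not hold under that correction. There NFKB2 at 48 h had a change of 0.31 ± 0.08 (adjusted p = 0.00299) from 204, 226 and 239.8 to 293, 276 and 284 CPM, and -0.04 (adjusted p = 0.385) with GC correction. RELB at 48 h had 0.53 ± 0.13 (adjusted p = 0.00281) and -0.01 (adjusted p = 0.790) respectively. At 24 h neither passed the test without correction (0.02 and 0.27), and both were lower with it, at -0.28 (adjusted p = 4.16e-05) for NFKB2 and -0.13 (adjusted p = 0.0296) for RELB. The uncorrected RELB value at 24 h was called when replicate 3 at 0 or 72 h or replicate 1 at 24 h was left out. RELB at 72 h in clone 3, at 0.32 (adjusted p = 0.0468), overlapped with 0 h, was 0.04 (adjusted p = 0.476) with GC correction, and was lost in 8 of 12 fits that left out 1 library, namely all but those without replicate 3 at 0 or 72 h or replicate 1 or 2 at 24 h.
The same correction acted the other way in shXBP1 clone 1. RELB libraries there were wide apart within a group, at 45.7, 32.6 and 28.4 CPM at 0 h and 27.8, 43.5 and 35 at 24 h, and no change passed the test (-0.04, -0.13 and -0.08). With GC correction RELB rose at each time, by 0.34 (adjusted p = 5.52e-05), 0.42 (adjusted p = 8.53e-06) and 0.46 (adjusted p = 2.68e-06). NFKB2 was at 204, 170.3 and 164 CPM at 0 h and 241, 221 and 222 at 72 h. Its changes were 0.29 (adjusted p = 0.0636), 0.24 (adjusted p = 0.100) and 0.32 (adjusted p = 0.0356) without correction and 0.47 (adjusted p = 1.47e-07), 0.56 (adjusted p = 2.09e-08) and 0.61 (adjusted p = 5.24e-09) with it. The uncorrected call at 72 h was lost without 0 h replicate 2 or 3, 24 h replicate 3 or any 72 h library. The 24 h change passed the test without 0 h replicate 1 or 24 h replicate 1, and the 48 h change passed it without 0 h replicate 1. No change of either gene in shXBP1 clone 18 passed the test, with values from -0.10 to -0.03 for NFKB2 and from -0.10 to 0.09 for RELB. Without the library at odds with its label the 72 h values were -0.15 (adjusted p = 0.318) and -0.24 (adjusted p = 0.327).

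RELA (chr11:65653599-65663090, minus strand) encodes the main activating subunit of the canonical pathway. It fell in clone 1 of either shRNA. In shIRE1 clone 1 it went from 63.7, 67.3 and 68.2 CPM at 0 h to 45.9, 47.9 and 48 at 24 h, and the changes were -0.51 ± 0.06 (adjusted p = 7.48e-07), -0.51 ± 0.06 (adjusted p = 5.51e-07) and -0.56 ± 0.06 (adjusted p = 1.96e-07). In shXBP1 clone 1 it went from 97.6, 85.1 and 81.8 to 64.7, 73.8 and 70.1 CPM at 24 h, and the changes were -0.38 ± 0.08 (adjusted p = 0.00646), -0.46 ± 0.08 (adjusted p = 0.00182) and -0.38 ± 0.08 (adjusted p = 0.00539). Groups did not overlap in either clone, and with GC correction the changes in shXBP1 clone 1 were smaller, at -0.27 (adjusted p = 3.03e-05) at 48 h and -0.22 (adjusted p = 1.87e-04) at 72 h. In shIRE1 clone 3 the level was 52 ± 1.38 CPM at 0 h, and the changes were 0.02, 0.07 and -0.10, none past the test. With GC correction RELA was lower there at all 3 times, at -0.17 (adjusted p = 0.00504), -0.14 (adjusted p = 0.0149) and -0.20 (adjusted p = 0.00129). Its mean in shXBP1 clone 18 was between 63.9 and 64.6 CPM in every group, and no change passed the test (at 72 h 0.01, and -0.03 without the library at odds with its label). The gene RELA-DT overlaps it on the other strand, and its share of the reads is uncertain.

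REL (chr2:60881491-60931612, plus strand), which encodes the subunit c-Rel known for its role in B cells, was the lowest of the 10 genes per length. It rose in shIRE1 clone 3 at 48 and 72 h. The libraries were at 5.59, 9.60 and 8.30 CPM at 0 h, 10.3, 9.69 and 8.09 after 24 h, 16, 16 and 15.7 after 48 h and 12.6, 11.8 and 15.4 after 72 h. The changes were 0.23 ± 0.16 (adjusted p = 0.241), 0.99 ± 0.15 (adjusted p = 4.43e-05) and 0.72 ± 0.15 (adjusted p = 8.78e-04), and with GC correction the 24 h value passed the test too, at 0.42 (adjusted p = 0.0182). Untreated cells of shIRE1 clone 1 were higher, at 13.1, 12.8 and 12.1 CPM, and the change at 24 h was -0.21 ± 0.09 (adjusted p = 0.0492). That value overlapped with 0 h, was -0.15 (adjusted p = 0.0668) with GC correction, and stayed past the threshold only without replicate 3 at 0 h, replicate 1 at 24 h, or replicate 1 or 3 at 48 h. The shXBP1 clone 1 changes were 0.26 (adjusted p = 0.111), 0.33 (adjusted p = 0.0479) and 0.31 (adjusted p = 0.0605). The call at 48 h stayed only without 0 h replicate 2 or 3 or 24 h replicate 1 or 2. A call at 72 h arose without 0 h replicate 2, 24 h replicate 1 or 2, or 48 h replicate 2. With GC correction the values were 0.22 (adjusted p = 0.0255), 0.17 (adjusted p = 0.0752) and 0.20 (adjusted p = 0.0428). In shXBP1 clone 18 the changes were 0.41, 0.29 and 0.41, none past the test, and leaving out 72 h replicate 1 brought the last to a call. It was 0.32 (adjusted p = 0.222) without the library at odds with its label. The smallest count of REL in a library was 113, and ENSG00000267520 overlaps its exons on the same strand.

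NFKB1 (chr4:102501330-102617302, plus strand) encodes the precursor of a subunit that lacks an activation domain. It rose in shXBP1 clone 1, from 104, 112 and 109 CPM at 0 h to 132, 138 and 137 at 72 h, with changes of 0.16 ± 0.05 (adjusted p = 0.0299), 0.26 ± 0.05 (adjusted p = 0.00210) and 0.29 ± 0.05 (adjusted p = 8.79e-04). The first of these was lost without 0 h replicate 1 or 24 h replicate 3. It also rose in shIRE1 clone 1 at 72 h, from 116, 117 and 108 to 126, 132 and 126 CPM (0.16 ± 0.04, adjusted p = 0.00229). The 48 h value of 0.10 (adjusted p = 0.0530) passed the test with GC correction (0.09, adjusted p = 0.0193) and without 0 h, 24 h or 48 h replicate 1. In shIRE1 clone 3 the change at 48 h was 0.12 ± 0.05 (adjusted p = 0.0470), was 0.08 (adjusted p = 0.0870) with GC correction, and stayed past the threshold only when replicate 1 at 0 or 24 h or replicate 3 at 48 h was left out. In shXBP1 clone 18 it was at 107, 105 and 135 CPM at 72 h, the last from the library at odds with its label, and the change was 0.13 (adjusted p = 0.306) with it and 0.01 (adjusted p = 0.935) without it.

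The clones differed before Dox. Between untreated shIRE1 clone 1 and clone 3, 8 of the 10 genes differed, against 40.6% of all genes, and between untreated shXBP1 clone 1 and clone 18, 7 differed, against 51.3%. NFKBIA was higher in clone 1 in both pairs, at 63.5 ± 3.21 against 35.6 ± 1.40 CPM for shIRE1 (0.81 ± 0.06, adjusted p = 8.16e-15) and 72.1 ± 4.62 against 44.9 ± 1.22 CPM for shXBP1 (0.67 ± 0.06, adjusted p = 8.25e-13). RELA was likewise higher in clone 1, by 0.33 ± 0.09 (adjusted p = 0.00258) and 0.45 ± 0.09 (adjusted p = 4.74e-05). TRAF1 was lower in clone 1 in both pairs, with log2 differences of -1.22 ± 0.09 (adjusted p = 4.95e-14) and -0.61 ± 0.09 (adjusted p = 5.33e-07).
NFKB2 (-0.57, adjusted p = 1.41e-06 and -0.33, adjusted p = 0.00218), NFKBIE (-0.35, adjusted p = 0.00798 and -0.42, adjusted p = 9.72e-04) and TNFAIP3 (-0.21, adjusted p = 4.40e-05 and -0.37, adjusted p = 9.56e-10) were lower in clone 1 too. At 72 h the levels of NFKBIA lay close together, with 39.2, 40.1 and 39.6 and 38.5, 39.3 and 37.9 CPM in shIRE1 clones 1 and 3 and 44.5, 43.1 and 45.1 and 43, 42 and 47.4 CPM in shXBP1 clones 1 and 18. The libraries of the clones overlapped at that time in both pairs. REL was higher in shIRE1 clone 1 than in clone 3 (0.68, adjusted p = 1.52e-04), and RELB was lower (-0.53, adjusted p = 0.00670), a call lost without clone 3, 0 h, replicate 3. The NFKBIE call for shIRE1 was lost without clone 1, 0 h, replicate 1 or clone 3, 0 h, replicate 3. BIRC3 between the shIRE1 clones was -0.20 (adjusted p = 0.0586), called in 5 of 48 fits that left out 1 library, and -0.17 (adjusted p = 4.16e-05) with GC correction. It differed between the shXBP1 clones (-0.27, adjusted p = 0.00863), a call lost without clone 1, 0 h, replicate 1 or clone 18, 0 h, replicate 2. With GC correction that value was -0.17 (adjusted p = 3.64e-05), and NFKB2 in the same pair was -0.51 (adjusted p = 1.09e-13). RELB in that pair was 0.23 (adjusted p = 0.232) without GC correction and -0.18 (adjusted p = 0.0221) with it.

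The response also differed between clones of one shRNA at 72 h. For shIRE1, 7 of the 10 genes responded differently in clone 1 and clone 3 (27.5% of all genes), and for shXBP1, 6 did in clone 1 and clone 18 (24.6%), or 5 without the library at odds with its label (19.8%). Each of those 7 and 6 genes had differed at 0 h in the opposite direction. The same 0 h libraries enter both values, so a difference in response is not independent of the unequal untreated levels. NFKBIA fell more in clone 1, with differences of -0.77 ± 0.08 (adjusted p = 6.96e-10) for shIRE1 and -0.68 ± 0.08 (adjusted p = 3.00e-08) for shXBP1, and the latter was -0.67 (adjusted p = 9.34e-08) without the library at odds with its label. TRAF1 rose more in clone 1, by 0.89 ± 0.12 (adjusted p = 4.38e-07) and 0.75 ± 0.13 (adjusted p = 2.37e-05), and TNFAIP3 by 0.41 ± 0.06 (adjusted p = 6.84e-07) and 0.50 ± 0.06 (adjusted p = 2.76e-08). Without that library the shXBP1 values were 0.73 and 0.54. NFKB2 differed by 0.47 (adjusted p = 0.00397) and 0.44 (adjusted p = 0.00759), the latter lost without clone 18, 72 h, replicate 2, and 0.46 (adjusted p = 0.0123) without the library at odds with its label.
RELA differed by -0.47 (adjusted p = 0.00422) in shIRE1 and -0.36 (adjusted p = 0.0308) in shXBP1, which was -0.36 (adjusted p = 0.0539) without the library at odds with its label. It was also lost without any of 5 other libraries, namely clone 1, 0 h, replicate 1, clone 1, 72 h, replicate 2, clone 18, 0 h, replicates 2 and 3, and clone 18, 72 h, replicate 1. NFKBIE differed by 0.39 (adjusted p = 0.0414) in shIRE1, which was lost in 34 of 48 fits that left out 1 library, and by 0.46 (adjusted p = 0.0203) in shXBP1. The latter was 0.44 (adjusted p = 0.0511) without the library at odds with its label. The shXBP1 call was also lost without clone 1, 0 h, replicate 2 or 3, clone 1, 72 h, replicate 1, clone 18, 0 h, replicate 3, or clone 18, 72 h, replicate 1. REL differed in shIRE1 (-0.92, adjusted p = 3.71e-04), where clone 3 rose and clone 1 did not. NFKB1 in shXBP1 came to a call without the library at odds with its label, going from 0.19 (adjusted p = 0.0749) to 0.28 (adjusted p = 0.00127). With GC correction RELB (0.50, adjusted p = 4.21e-05 and 0.32, adjusted p = 0.00656) and BIRC3 (-0.13, adjusted p = 0.0306 and 0.15, adjusted p = 0.0153) also differed in both pairs.

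The design sets IRE1 silencing beside XBP1 silencing, and the difference in response was tested as the mean of the shIRE1 clones minus the mean of the shXBP1 clones in a fit of all 48 libraries. It passed the test for 4 of the 10 genes at 24 h (38.7% of all genes), 6 at 48 h (56.9%) and 5 at 72 h (55.3%). Without the library at odds with its label it passed for 5 at 72 h as well (54.3%), with values of 1.08 for NFKBIE, 0.42 for BIRC3, 0.69 for RELB, 0.28 for NFKB2 and -0.37 for TNFAIP3. The values not past the test were 0.13 for TRAF1, 0.09 for NFKBIA, -0.14 for RELA and -0.06 for NFKB1. NFKBIE differed most, by 0.71 ± 0.10 (adjusted p = 5.56e-07), 1.30 ± 0.10 (adjusted p = 9.03e-14) and 1.09 ± 0.10 (adjusted p = 1.39e-11) at the 3 times, and with GC correction by 0.42 (adjusted p = 5.37e-06), 0.91 (adjusted p = 1.31e-14) and 0.76 (adjusted p = 3.16e-12). BIRC3 was higher after shIRE1 after 48 h (0.32 ± 0.09, adjusted p = 0.00147) and 72 h (0.42 ± 0.09, adjusted p = 8.29e-05), with GC-corrected values of 0.62 (adjusted p = 9.24e-20) and 0.66 (adjusted p = 1.18e-20). TRAF1 was higher at 48 h, by 0.83 ± 0.09 (adjusted p = 2.10e-10), but not detectably at 72 h, by 0.13 ± 0.09 (adjusted p = 0.214). At 24 h TRAF1 passed the test (0.24, adjusted p = 0.0317), was lost in 16 of 48 fits that left out 1 library, and was 0.10 (adjusted p = 0.357) with GC correction. The clones of the shRNAs overlapped there, since TRAF1 rose more in shXBP1 clone 1 than in shIRE1 clone 3.
NFKBIA was lower after shIRE1 at 24 h (-0.34 ± 0.06, adjusted p = 5.43e-06), and at 48 and 72 h the differences were 0.11 (adjusted p = 0.0842) and 0.07 (adjusted p = 0.283), the former called without shIRE1 clone 1, 48 h, replicate 3. The 24 h difference is one of means over clones, and NFKBIA fell further in shXBP1 clone 1 than in shIRE1 clone 3 at that time. TNFAIP3 was lower after shIRE1 after 48 h (-0.22 ± 0.04, adjusted p = 1.68e-05) and 72 h (-0.40 ± 0.04, adjusted p = 8.98e-11). Its clones overlapped as well, since at both times it rose more in shIRE1 clone 1 than in shXBP1 clone 18. The differences of NFKB2 and RELB turned on the GC correction. For RELB they were 0.40 (adjusted p = 0.0410), 0.82 (adjusted p = 2.27e-05) and 0.63 (adjusted p = 8.55e-04) without it and -0.10 (adjusted p = 0.258), 0.12 (adjusted p = 0.110) and 0.02 (adjusted p = 0.841) with it, and the uncorrected 24 h call was lost in 26 of 48 fits that left out 1 library. For NFKB2 they were 0.11 (adjusted p = 0.341), 0.43 (adjusted p = 8.01e-05) and 0.26 (adjusted p = 0.0112) without and -0.22 (adjusted p = 3.87e-05), -0.01 (adjusted p = 0.833) and -0.10 (adjusted p = 0.0430) with correction. At 72 h the uncorrected rise of NFKB2 was larger in shXBP1 clone 1 than in shIRE1 clone 3.
RELA, with uncorrected differences of -0.05, 0.01 and -0.15 that did not pass the test, was lower after shIRE1 with correction, at -0.26 (adjusted p = 5.25e-06), -0.27 (adjusted p = 2.13e-06) and -0.38 (adjusted p = 1.82e-09). REL at 24 h was at -0.33 (adjusted p = 0.0569), and -0.34 (adjusted p = 0.0451) without the library at odds with its label, a difference that also passed the test in 18 of 48 fits that left out 1 library. At 48 h REL was 0.18 (adjusted p = 0.279), and 0.42 (adjusted p = 0.00147) with GC correction. NFKB1 did not pass the test at any time, with differences of -0.03, -0.01 and -0.11. At 72 h it was -0.13 (adjusted p = 0.0339) with GC correction and was called without shIRE1 clone 1, 0 h, replicate 3, clone 3, 72 h, replicate 3, or shXBP1 clone 18, 72 h, replicate 1 or 2. BIRC3 at 24 h (-0.14, adjusted p = 0.210) was called without shXBP1 clone 1, 24 h, replicate 2.

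**Figure D3:**
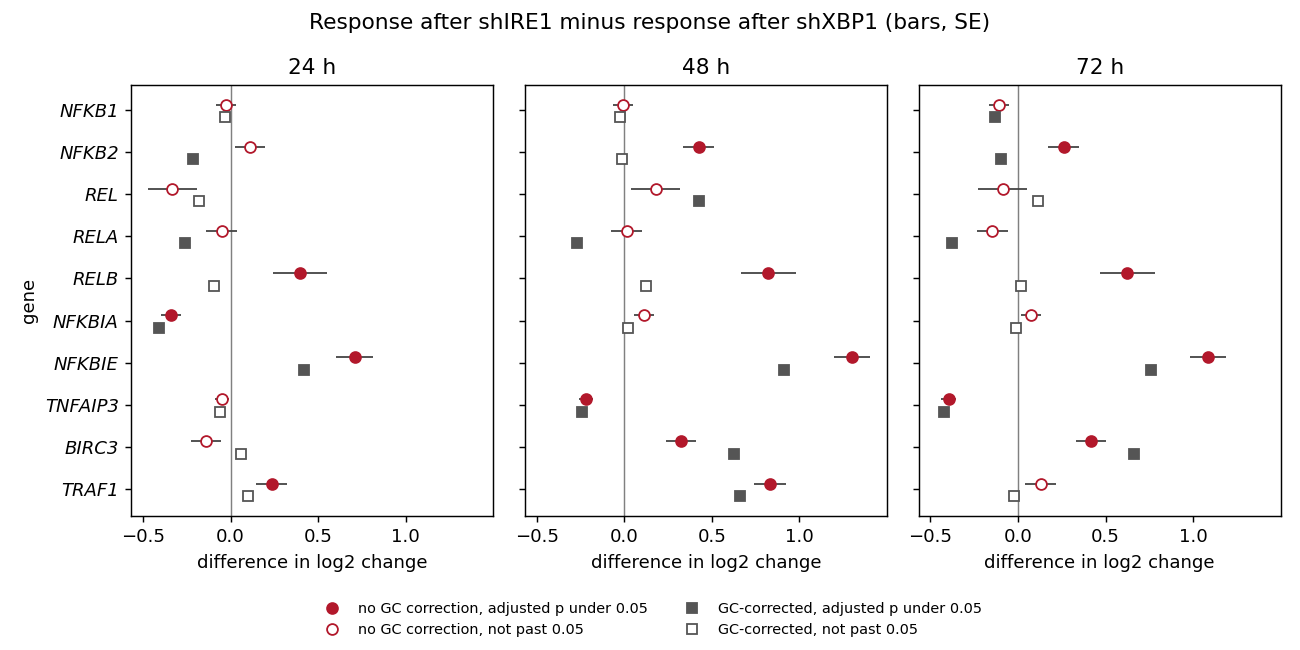
Difference in log2 change, shIRE1 minus shXBP1 (x axis), for each gene (rows) at 24, 48 and 72 h of Dox; circles with SE bars are without and squares with GC correction, filled where the adjusted p was under 0.05. NFKBIE stays high and TNFAIP3 low at 48 and 72 h in both fits, while the RELB circles at 0.40, 0.82 and 0.63 stand against squares at -0.10, 0.12 and 0.02.

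The tie to GC content was seen within groups, where treatment is the same. Across the 48 libraries, which share the 16 group means that were taken out, the deviation of a gene from its group mean had a Pearson r with the GC lean of the library of 0.93 for NFKB2, 0.91 for RELB, 0.88 for RELA, 0.79 for NFKBIE and -0.94 for BIRC3. It was 0.61 for NFKBIA, -0.57 for REL, -0.40 for NFKB1, 0.36 for TRAF1 and 0.15 for TNFAIP3. Over all genes the change after Dox also sloped with GC content, by 0.26 log2 per 10 percentage points in shIRE1 clone 3 at 48 h, by 0.15 in shIRE1 clone 1 and by -0.21 in shXBP1 clone 1. What part of the uncorrected changes of GC-rich genes came from the libraries was not tested.

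**Figure D4:**
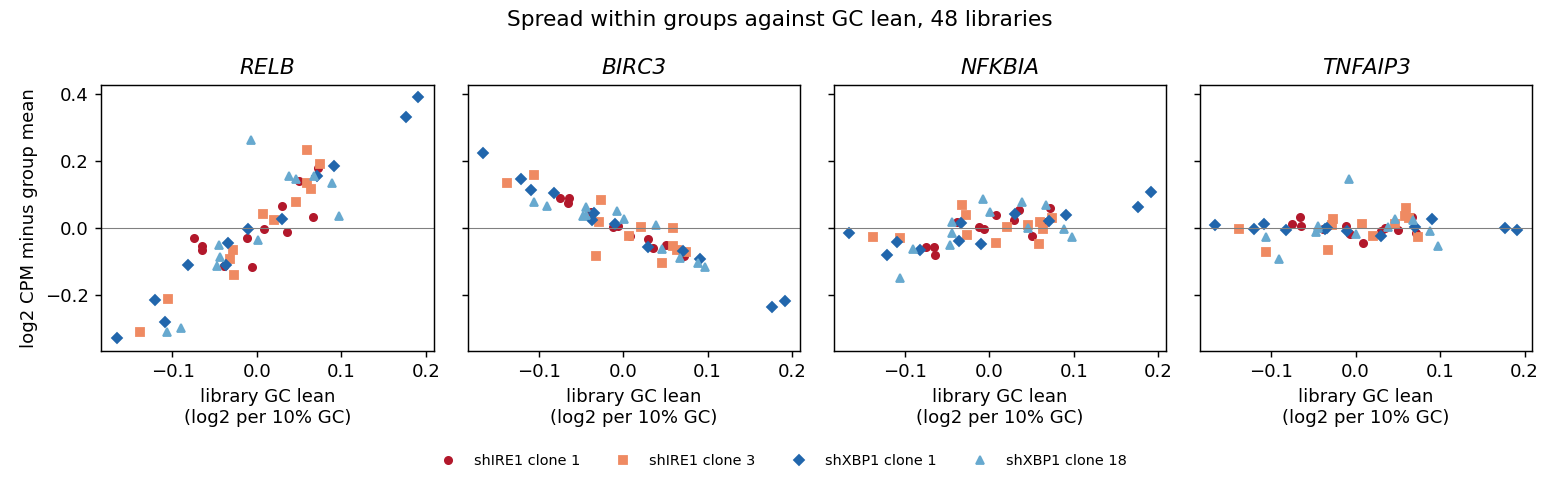
Log2 CPM minus the group mean (y axis) against the GC lean of the library in log2 per 10 percentage points of GC (x axis) for RELB, BIRC3, NFKBIA and TNFAIP3; each point is 1 of 48 libraries, coloured by clone. RELB climbs with the lean and BIRC3 declines, while TNFAIP3 stays close to 0 apart from the library at odds with its label.

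Other genes of the pathway were taken from lists of 26 kinases and adaptors upstream, 18 receptors and ligands, 12 further inhibitors and deubiquitinases and 24 further target genes. Of the kinases and adaptors, all 26 of which were tested, 12 were higher and 5 lower at 72 h in shIRE1 clone 1, 14 and 5 in clone 3, 7 and 1 in shXBP1 clone 1 and 2 and 2 in clone 18. Of all genes tested at 72 h, 32.5% were higher and 31.1% lower in shIRE1 clone 1, 29.7% and 30.5% in clone 3, 16.8% and 16.8% in shXBP1 clone 1 and 4.41% and 5.55% in clone 18. The counts of this list and of those that follow stand beside these shares. The median log2 changes of the kinases and adaptors were 0.12, 0.26, -0.01 and -0.04. IKBKE, a kinase related to the IKK subunits, rose most in both shIRE1 clones (1.20 and 1.73 in clones 1 and 3), followed by the ubiquitin ligase gene TRAF6 (0.71 and 0.43) and the adaptor gene MYD88 (0.25 and 0.84). Falls in both clones were those of BCL10 (-0.50 and -0.51), CHUK, an IKK catalytic subunit (-0.47 and -0.27), and MALT1 (-0.30 and -0.17), although in clone 3 CHUK was -0.13 (adjusted p = 0.00516) and MALT1 -0.04 (adjusted p = 0.320) with GC correction. In both shXBP1 clones TRAF5 (0.41 and 0.51) and TAB2 (0.29 and 0.30) rose and the kinase gene IRAK1 fell (-0.89 and -0.35), with smaller GC-corrected values for IRAK1 of -0.51 (adjusted p = 9.97e-10) and -0.19 (adjusted p = 0.0168). Without the library at odds with its label the clone 18 values were 0.30 (adjusted p = 0.0314) for TRAF5, 0.27 (adjusted p = 0.0224) for TAB2 and -0.32 (adjusted p = 0.0952) for IRAK1, and 2 kinases and adaptors were higher and 1 lower.

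Of the receptors and ligands, 10 of 18 were tested in the shIRE1 clones, 8 in shXBP1 clone 1 and 9 in clone 18. At 72 h 4 were higher and 3 lower in shIRE1 clone 1, 7 and 2 in clone 3, 2 and 4 in shXBP1 clone 1 and 0 and 2 in clone 18, with medians of 0.01, 0.72, -0.48 and -0.47, and 1 was lower in clone 18 without the library at odds with its label. The lymphotoxin genes, whose products signal to the alternative pathway, rose in both shIRE1 clones. LTB went from 1.97 to 12.5 CPM in clone 1 and from 4.46 to 14.7 in clone 3 (2.66 and 1.69), and LTA rose by 1.54 and 1.35. TNFRSF13C, the receptor for BAFF, rose by 0.89 and 0.53, and TNFRSF17, the plasma cell receptor BCMA, fell (-1.21 and -2.54), from 180.3 to 78.6 CPM in clone 1 and from 271 to 47.6 in clone 3. TNFRSF13B, a further receptor of this family, fell as well (-0.45 and -1.08).

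Of the further inhibitors and deubiquitinases 11 of 12 were tested, and at 72 h 3 were higher and 4 lower in shIRE1 clone 1, 4 and 3 in clone 3, 2 and 2 in shXBP1 clone 1 and 0 and 0 in clone 18 (medians -0.04, 0.09, 0.06 and -0.05). BCL3, a nuclear IκB-like cofactor, rose in both shIRE1 clones (1.11 and 0.54), with a value of 0.22 (adjusted p = 0.0517) in clone 3 with GC correction, and so did the deubiquitinase gene CYLD (0.60 and 0.49) and TNIP1 (0.21 and 0.24). TNIP1 was at 0.08 (adjusted p = 0.0133) and 0.13 (adjusted p = 0.00444) with GC correction. OTULIN (-0.49 and -0.36), TNIP2 (-0.24 and -0.55) and TAX1BP1 (-0.23 and -0.52) fell in both. With GC correction TNIP2 was at -0.36 (adjusted p = 8.07e-06) in clone 1 and TAX1BP1 at -0.35 (adjusted p = 2.40e-06) in clone 3. Of the 24 further target genes, 17 were tested in shIRE1 clone 1, 16 in clone 3 and in shXBP1 clone 1 and 18 in clone 18. Of these, 7 were higher and 7 lower at 72 h in shIRE1 clone 1, 5 and 5 in clone 3, 3 and 4 in shXBP1 clone 1 and 0 and 4 in clone 18 (medians -0.02, 0.03, -0.05 and -0.22). CCL3, a chemokine gene, fell from 43.4 to 4.04 CPM in shIRE1 clone 1 and from 195 to 1.79 in clone 3 (-3.43 and -6.79), whereas the chemokine gene CCL5 rose (1.89 and 0.69). The survival gene BCL2L1 (0.68 and 0.88) and CD69 (1.59 and 1.15) rose, the latter from 0.165 to 0.482 CPM in clone 1, and XIAP (-0.84 and -1.24) and CCND2 (-0.17 and -0.26) fell. No gene of these last 3 lists was called in the same direction in both shXBP1 clones.

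Across the 16 group means, which share libraries and clones, the pair of members with the highest correlation of log2 CPM was NFKB2 and TRAF1 (Pearson r = 0.85), then RELB and NFKBIE (0.84), and the lowest was RELA and BIRC3 (-0.79). Among 12012 genes with a mean log2 CPM above 1, the genes most like NFKBIA over the 16 groups were TUBA4A (r = 0.95) and FUBP1 (0.95), and those most like NFKBIE were LRSAM1 (0.98) and N4BP3 (0.97). For TRAF1 they were BMF (0.95) and GSDMB (0.94), for TNFAIP3 ZCCHC11 (0.89) and WDR19 (0.88), and for BIRC3 RORA (0.96) and TMEM30A (0.95). For NFKB2 they were ST3GAL3 (0.96) and BCL3 (0.96), for RELB AC087633.2 (0.96) and NOP53 (0.96), and for RELA SNRPA (0.97) and EP400 (0.97). For REL they were STK17A (0.89) and ZNF792 (0.88), and for NFKB1 RASGRP1 (0.90) and AC004918.3 (0.88). GC content differs among these genes, and its part in the likeness was not tested.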

How the data were processed

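Stranded mRNA libraries from 48 cultures (4 clones, 4 times, 3 replicates) were sequenced by the authors. The deposited table holds raw counts per gene for 58302 genes. The submitters' processing notes name GSNAP, GRCh37, hg19, R 4.1.3, edgeR 3.32.1 and limma 3.46.0, with no role given, and whether counting used strand is not given in the sources used here. A second deposited table holds log2 CPM of 18401 genes, which equals edgeR's log2 CPM with a prior count of 2. Gene positions and lengths here are those of GENCODE 44 on GRCh38, while the build of the counts is not settled.

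Counts were tested with edgeR 4.0.16 in R 4.3.3: TMM factors, a filter on low counts (filterByExpr, minimum count 10, minimum total 15), the quasi-likelihood F test and Benjamini-Hochberg adjustment across every gene in the fit (threshold 0.05). Each clone was fitted on its own 12 libraries, and differences between clones or shRNAs on all 48. The scripts were tested on simulated data. DESeq2 1.42.0, limma 3.58.1 on the deposited log2 table and other settings served as alternatives. The GC correction used 20 bins of transcript GC content. Total counts of 19177855 to 40767202 make 1 count worth at most 0.0521 CPM. The 10 genes and the gene lists were chosen with earlier results of these data known. All 10 genes are named with the 2 genes most like each, and from each list up to 3 genes per direction with the largest mean change among those called in the same direction at 72 h in both clones of a shRNA. P-values measure the spread between cultures of a clone. The level of 1 marker gene is not reported here.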

Additional observations from a re-analysis of the deposited data

Results flagged for a closer look

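Differences of response that passed the test were taken from 50 tests, 10 genes in 5 comparisons (edgeR quasi-likelihood F test, Benjamini-Hochberg over all genes), and 28 did. Of all genes, 38.7%, 56.9% and 55.3% passed between shIRE1 and shXBP1 at 24, 48 and 72 h. The shares at 72 h were 27.5% between the shIRE1 clones and 24.6% between the shXBP1 clones. The 28 values are given as differences in log2 change. Between shIRE1 and shXBP1 they were 0.71 at 24 h, 1.30 at 48 h and 1.09 at 72 h for NFKBIE, 0.40, 0.82 and 0.63 for RELB at the same times, and -0.34 for NFKBIA at 24 h. For TRAF1 they were 0.24 at 24 h and 0.83 at 48 h. At 48 and 72 h they were 0.43 and 0.26 for NFKB2, -0.22 and -0.40 for TNFAIP3, and 0.32 and 0.42 for BIRC3. These values compare means over clones. The clones of the shRNAs overlapped for NFKBIA and TRAF1 at 24 h, TNFAIP3 at 48 and 72 h and NFKB2 at 72 h.

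Between shIRE1 clone 1 and clone 3 at 72 h they were 0.47 for NFKB2, -0.92 for REL, -0.47 for RELA, -0.77 for NFKBIA, 0.39 for NFKBIE, 0.41 for TNFAIP3 and 0.89 for TRAF1. Between shXBP1 clone 1 and clone 18 at 72 h they were 0.44 for NFKB2, -0.36 for RELA, -0.68 for NFKBIA, 0.46 for NFKBIE, 0.50 for TNFAIP3 and 0.75 for TRAF1. With GC correction the RELB and NFKB2 values between the shRNAs ended or turned, TRAF1 at 24 h was 0.10 (adjusted p = 0.357), NFKBIE at 24 h 0.42, and BIRC3 0.62 at 48 h and 0.66 at 72 h. Without the library at odds with its label, RELA was -0.36 (adjusted p = 0.0539) and NFKBIE 0.44 (adjusted p = 0.0511) between the shXBP1 clones. The differences between clones share the 0 h libraries with those between untreated clones and had the opposite sign.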

How the results depend on the processing

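With GC correction 16 values turned in direction. In shIRE1 clone 3 at 24 and 48 h they were -0.28 and -0.044 for NFKB2, -0.17 and -0.14 for RELA and -0.13 and -0.015 for RELB. In shXBP1 clone 1 they were 0.34, 0.42 and 0.46 for RELB at the 3 times and 0.23 for NFKBIE at 48 h. Between shRNAs they were -0.22, -0.012 and -0.10 for NFKB2 at the 3 times, -0.27 for RELA at 48 h and -0.10 for RELB at 24 h, and between untreated shXBP1 clones -0.18 for RELB. The correction brought 18 further values to a call, ended 9 and left 147. It gave 7 called genes against 4 in shIRE1 clone 3 at 24 h and 9 against 5 in shXBP1 clone 1 at 24 h. The share of all genes called with GC correction is not given here. These counts therefore do not tell whether the genes studied differ in this from other genes.

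The count in shXBP1 clone 18 at 48 h, 1 as reported above, was 0 without the filter, and 2 with only the 6 libraries compared, with the spread from all 48 libraries or without the library at odds with its label. At 72 h, 3 as reported above, it was 0 with only the 6 libraries and 1 without that library. Leaving out 1 library gave 0 to 2 genes at 48 h and 0 to 3 at 72 h there, and 2 to 6 between shRNAs at 24 h (4 as reported above). The cause of these changes was not tested. Without the library at odds with its label, 2223 of 17171 genes tested were called in clone 18 at 48 h, against 974 of 16860 with it. At 72 h the numbers were 1300 of 17171 and 1680 of 16860. Shares of all genes under the other settings are not given here. The counts therefore do not tell whether the genes studied differ in this from other genes. Of 190 values, the call was the same for 188 with DESeq2, 188 with RLE factors, 190 with the deposited log2 table and 172 without the filter. A sign change in 25 values that were never called was not counted.

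With the replicate block 14 calls were lost and 176 values kept their call, and shXBP1 clone 18 at 72 h had 1 called gene. The share of all genes called with the block is not given here either. Replicate numbers did not pair the samples: correlations of same-numbered deviations ran from -0.41 to 0.25, and 20 of 72 were best with their own number.

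Each target had 2 clones, and every change includes Dox itself and time in culture. The depth gives REL as few as 113 counts in a library.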
